A study of Homo sapiens with 4 samples.

Results

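Respiratory chain assembly factors are proteins that build the complexes of oxidative phosphorylation and are absent from the finished enzymes. The 39 genes described here were chosen by name, as the transcript clusters whose platform annotation gives one of 39 listed symbols, and all 39 were found, each with 1 transcript cluster, among 17687 genes with a symbol. Such a transcript cluster gives one summarised value per locus and array. Transcript levels were measured on single-colour whole-transcript arrays in cells of the human line SUIT2 exposed to fb-PMT at 30 µM for 24 h (n = 2 arrays) or to phosphate-buffered saline at pH 7.4 for the same time (n = 2 arrays, titled untreated). All cells grew in RPMI medium with fetal bovine serum. fb-PMT is a polyethylene glycol-linked thyroid hormone analog with a fluorobenzyl group, made to act at the hormone receptor site of integrin αvβ3, and the series asked how it alters transcription of genes that mitochondria need.

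The labels describe SUIT2 as glioblastoma cells, whereas the line is known from pancreatic ductal adenocarcinoma. Of 5 epithelial markers, KRT8, KRT18, KRT19 and EPCAM had log2 values of 15.09 to 16.17 on the fb-PMT arrays and 15.14 to 16.45 on the control arrays, and CDH1 was below the negative controls. All 5 glial markers, GFAP and OLIG2 among them, were below the negative controls on every array. The epithelial markers differed in both directions, with log2 differences of -0.29 for KRT8, -0.46 for KRT18, -0.19 for KRT19, 0.35 for EPCAM and 0.10 for CDH1, and none passed limma's test (lowest adjusted p = 0.396). Their part in the results below was not tested. The labels do not say whether replicate arrays stem from separate cultures, and p-values here speak for the spread of these 4 arrays, which may be technical. The 2 fb-PMT arrays correlated with r = 0.996 across transcript clusters, the 2 control arrays with 0.995, and arrays of different groups with 0.992 to 0.994. In bulk RNA, fewer cells of a kind and less RNA per cell cannot be told apart.

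Each respiratory complex is put together in the inner mitochondrial membrane from subunits of nuclear and mitochondrial origin, with flavins, iron-sulfur clusters, hemes and copper added on the way. Assembly factors hold intermediates, insert these cofactors, modify subunits or help in their synthesis and membrane insertion, and inherited loss of many of them causes mitochondrial disease.

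No assembly factor passed limma's test between fb-PMT and control cells at an adjusted p of 0.05 (Benjamini-Hochberg over 21448 transcript clusters). Among all transcript clusters 21 passed, or 0.0979%. At an unadjusted p under 0.05 there were 2 members, NDUFAF4 and NUBPL, or 5.13%, against 11.2% of all transcript clusters. The fb-PMT mean was lower for 24 members and higher for 15, with a median log2 difference of -0.066, against -0.017 over all transcript clusters. The share with a lower mean was 61.5% of the members and 52.7% of all transcript clusters. This share was 62.9% for the 35 members above the negative controls on all 4 arrays. It was 48.9% for the 8696 transcript clusters above these controls. The median log2 difference was -0.066 for these 35 members and 0.0060 for these 8696 transcript clusters. Whether these shares or medians differ was not tested. With a variance that follows intensity, 4 members had an unadjusted p under 0.05, against 12.9% of all transcript clusters, and 0 members passed, against 1.88% of all. Among the 35 members above the array's negative controls, differences ran from -0.54 for NDUFAF4 to 0.28 for PET100. NUBPL, at 0.40, was below those controls on every array.

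In 8 members both fb-PMT arrays lay below both control arrays, and in 3 both lay above. These are 20.5% and 7.69% of the members, against 22.3% and 20.2% of all transcript clusters. The count of lower members is thus near the background and that of higher members under it. Among the 35 members above the negative controls on all 4 arrays the shares were 20% and 5.71%. They were 23.1% and 26.4% of the 8696 transcript clusters above these controls. The difference in shares was not tested. The 8 were NDUFAF1, NDUFAF4, SDHAF1, UQCC3, LYRM7, COX17, ATPAF2 and TMEM70, and the 3 were NDUFAF3, NUBPL and COX15. The other 28 overlapped between the groups.

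**Figure D1:**
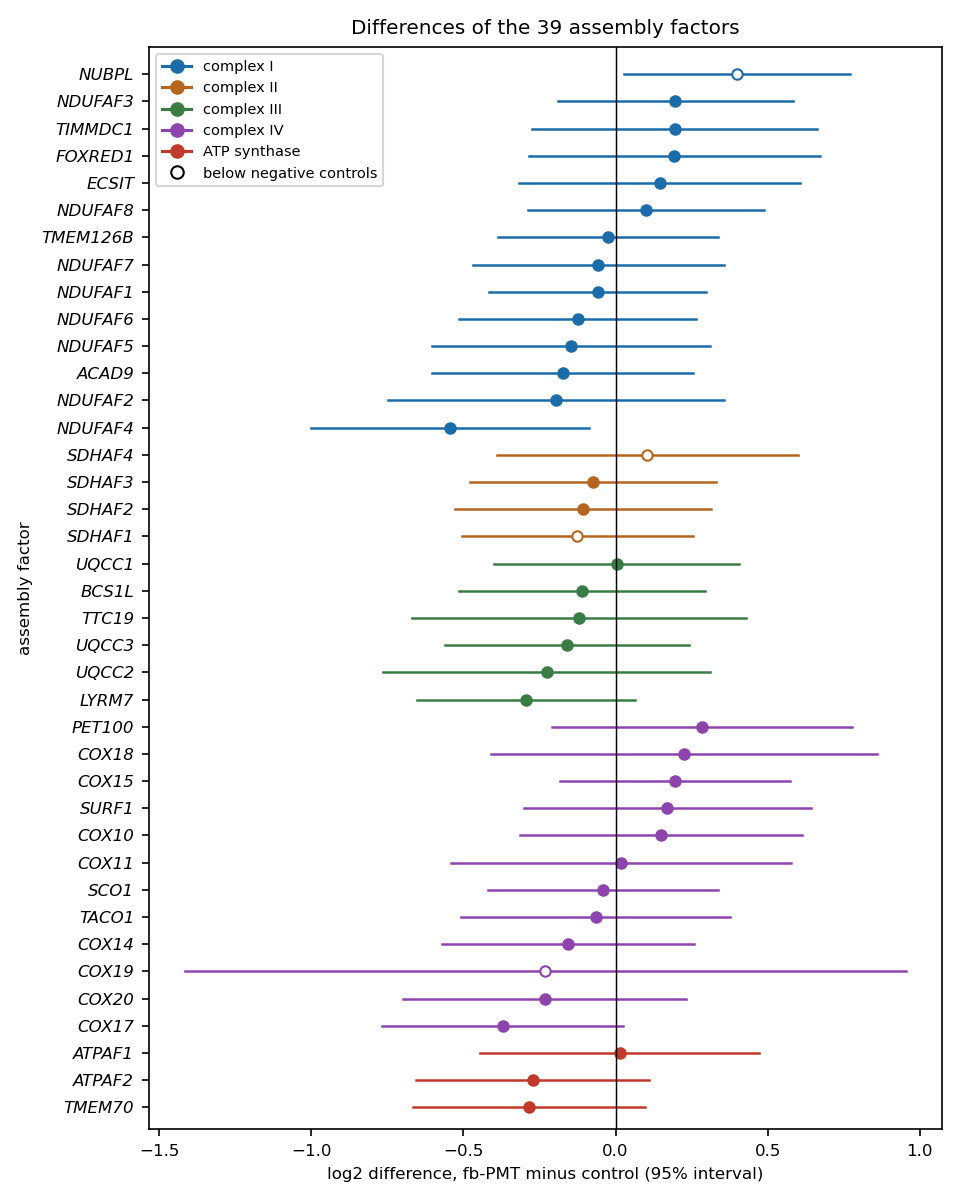
Log2 difference (fb-PMT minus control, points) with its 95% interval (lines, limma's moderated variance, not adjusted for the number of genes) for the 39 assembly factors, coloured by complex; open points lay below the negative controls on every array. Only the intervals of NDUFAF4 and NUBPL leave out 0, and COX19 has the widest, from -1.41 to 0.95.

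With 2 arrays a group, precision was limited: a member's log2 difference had a standard error of 0.17 in the median. The 95% intervals of 37 members lay wholly within a 2-fold change in either direction, and those of 18 within a 1.5-fold change; these intervals are not adjusted for the number of genes. The exceptions at 2-fold were COX19, with an interval of -1.41 to 0.95, and NDUFAF4, with -1.001 to -0.09. Over all 21448 transcript clusters, 18699 intervals lay within 2-fold and 8264 within 1.5-fold. Among the 35 members above the negative controls on all 4 arrays these counts were 34 and 17. Of the 8696 transcript clusters above the negative controls on all 4 arrays, 8217 lay within 2-fold and 4622 within 1.5-fold. Of the 39 members, 35 were above the 95th percentile of the array's negative control probe sets on all 4 arrays. That percentile was 7.15 and 7.29 on the fb-PMT arrays and 7.38 and 7.22 on the control arrays. On every array NUBPL, SDHAF1, SDHAF4 and COX19 stayed under it, so no fold is given for them.

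**Figure D2:**
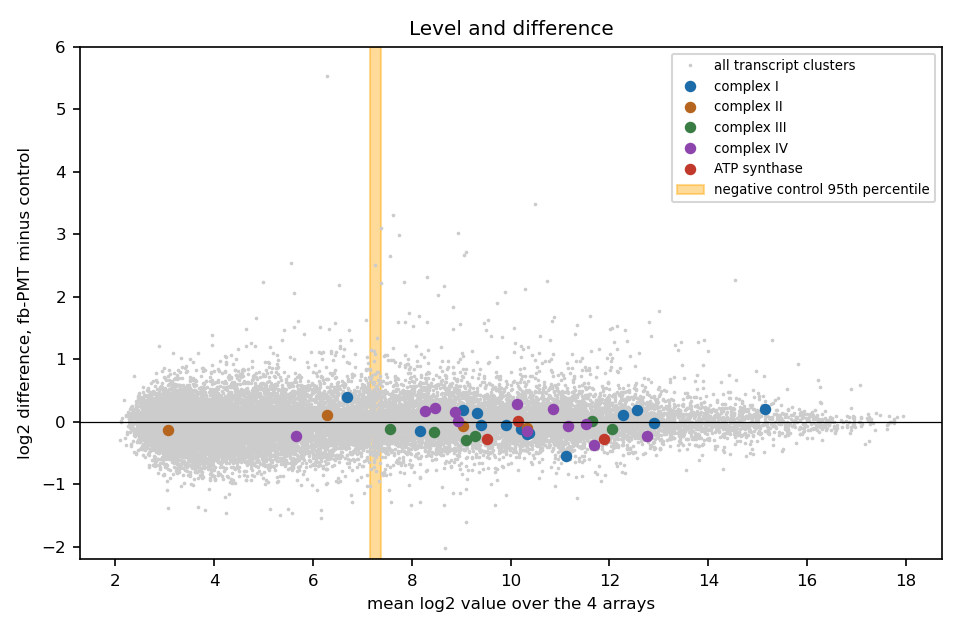
Mean log2 value over the 4 arrays (horizontal) and log2 difference, fb-PMT minus control (vertical), for all 21448 transcript clusters (grey) and the assembly factors (coloured by complex); the band spans the negative control percentile of the 4 arrays, 7.15 to 7.38. The members lie within the grey cloud, and 4 of them, NUBPL at 0.40 included, lie left of the band.

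Brightness differs between probe sets for reasons of their design, so levels of different members are not set against each other. SDHAF1 had log2 values of 3.04 and 2.97 on the fb-PMT arrays, against 3.05 and 3.22 on the control arrays.

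Complex I, the proton-pumping NADH dehydrogenase, had the most assembly factors, 14, of which 8 had a lower and 6 a higher mean with fb-PMT (median -0.041). NDUFAF4 binds the module of complex I that reduces ubiquinone (the Q module) during its assembly. Its log2 values were 10.69 and 10.99 on the fb-PMT arrays, against 11.51 and 11.26 on the control arrays. Both fb-PMT arrays lay below both control arrays, and the gap between the means was larger than the range within either group. The mean was 10.84 ± 0.21 with fb-PMT and 11.39 ± 0.18 in control cells (SD, n = 2 each), a log2 difference of -0.54 (SE 0.18) or 1.46-fold lower. In limma's test its unadjusted p was 0.0274 and its adjusted p 0.392, and over the alternatives the adjusted p ran from 0.106 to 0.72.

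NDUFAF3, which works as a partner of NDUFAF4, did not share its direction. It had 15.14 and 15.35 on the fb-PMT arrays, against 15.04 and 15.06 on the control arrays, without overlap (0.20, SE 0.16, adjusted p = 0.681). NDUFS3, a Q module subunit that this pair of factors meets, was at -0.18 (SE 0.15, adjusted p = 0.707). The difference between the partners was seen after the fact and was not tested.

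NUBPL delivers iron-sulfur clusters to complex I. It had 6.95 and 6.82 on the fb-PMT arrays, against 6.46 and 6.52 on the control arrays. The groups did not overlap (difference 0.40, SE 0.15, unadjusted p = 0.0393, adjusted p = 0.427 in limma's test), but all 4 values were below the negative controls. Among the 35 members above the negative controls on all 4 arrays, the highest difference was the 0.28 of PET100.

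The promoters of NDUFAF4, NUBPL and COX17 (a copper chaperone of complex IV) are shown. These 3 members had the smallest p in the fit without a trend. With a variance that follows intensity, TMEM70 (unadjusted p = 0.0280 in limma's test) and NDUFAF3 (0.0399) came before NUBPL (0.0892). Each is the 250 bases before the first listed gene start in RefSeq, GRCh38.p14, read 5′ to 3′ on the gene's strand. NDUFAF4 is at chr6:96897892-96898141 (minus strand), NUBPL at chr14:31561154-31561403 (plus strand) and COX17 at chr3:119677407-119677656 (minus strand). Capitals mark matches on either strand to GCATGCGC, a core of the site of NRF1, to CCGGAAG, a core of sites of ETS factors such as GABPA, or to AAGATGGC, a core of the site of YY1. These factors are known activators of respiratory genes, and the letters were chosen with the promoters in view.
NDUFAF4: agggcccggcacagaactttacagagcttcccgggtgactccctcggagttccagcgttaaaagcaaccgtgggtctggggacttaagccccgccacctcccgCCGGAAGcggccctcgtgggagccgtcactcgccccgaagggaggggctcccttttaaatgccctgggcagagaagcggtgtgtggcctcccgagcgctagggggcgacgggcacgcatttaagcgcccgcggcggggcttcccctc
NUBPL: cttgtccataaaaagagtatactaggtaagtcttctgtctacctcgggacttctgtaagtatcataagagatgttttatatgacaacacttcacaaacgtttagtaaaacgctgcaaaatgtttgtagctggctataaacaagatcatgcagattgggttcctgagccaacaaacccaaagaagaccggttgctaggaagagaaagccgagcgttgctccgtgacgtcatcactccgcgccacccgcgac
COX17: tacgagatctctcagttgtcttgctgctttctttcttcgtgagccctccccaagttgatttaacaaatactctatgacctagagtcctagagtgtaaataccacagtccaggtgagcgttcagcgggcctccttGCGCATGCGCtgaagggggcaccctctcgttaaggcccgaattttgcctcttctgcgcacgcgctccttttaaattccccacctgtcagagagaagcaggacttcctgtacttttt
The NDUFAF4 window held 1 ETS match, 147 to 141 bases before the start. The COX17 window held overlapping NRF1 matches on both strands, 116 to 107 bases before the start, and the NUBPL window none of the 3 motifs. RefSeq windows were found for 34 of the 39 members. The NRF1 letters were in 4 of these (11.8%), against 2.81% of 27305 windows of the same length, and the ETS letters in 9 (26.5%), against 8.82%. The 27305 windows were not limited to genes measured here, and the difference in shares was not tested. The YY1 letters were in no member's window, against 1.37% of all windows. The NRF1 matches were in COX17, COX18, SDHAF2 and UQCC2, whose differences ran from -0.37 to 0.22, and a match describes letters and not binding.

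Of the other complex I factors, NDUFAF1, ACAD9, ECSIT, TMEM126B and TIMMDC1 belong to or meet the complex that builds the membrane arm. TIMMDC1 had the largest difference of these 5, with 12.46 and 12.87 on the fb-PMT arrays against 12.48 and 12.46 on the control arrays (0.19, SE 0.19, adjusted p = 0.748). One fb-PMT array was level with the control arrays and the other stood above them. ACAD9, an acyl-CoA dehydrogenase recruited to assembly, was at -0.17 and the adaptor ECSIT at 0.14, both with overlapping groups. TMEM126B had 12.89 and 12.88 on the fb-PMT arrays, against 12.96 and 12.88 on the control arrays (-0.03, SE 0.15). NDUFAF1 had replicates close together in both groups, with 9.37 and 9.38 on the fb-PMT arrays against 9.44 and 9.43 on the control arrays. Its groups did not overlap, yet its difference was only -0.06 (SE 0.14, adjusted p = 0.914).

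NDUFAF5 hydroxylates and NDUFAF7 methylates an arginine of a complex I subunit, and NDUFAF8 stabilises NDUFAF5. NDUFAF5 was at -0.15, NDUFAF7 at -0.06 and NDUFAF8 at 0.10, and all 3 overlapped between the groups. NDUFS7, the subunit that NDUFAF5 modifies, was at 0.46 (SE 0.26, adjusted p = 0.56), also with overlap. NDUFAF2 is a paralog of the subunit NDUFA12 and holds its place late in assembly. It was at -0.19 and NDUFA12 at 0.06, neither past the test. NDUFAF6, needed for an early step, was at -0.12, and the oxidoreductase-like factor FOXRED1 at 0.19 (adjusted p = 0.756).

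**Figure D3:**
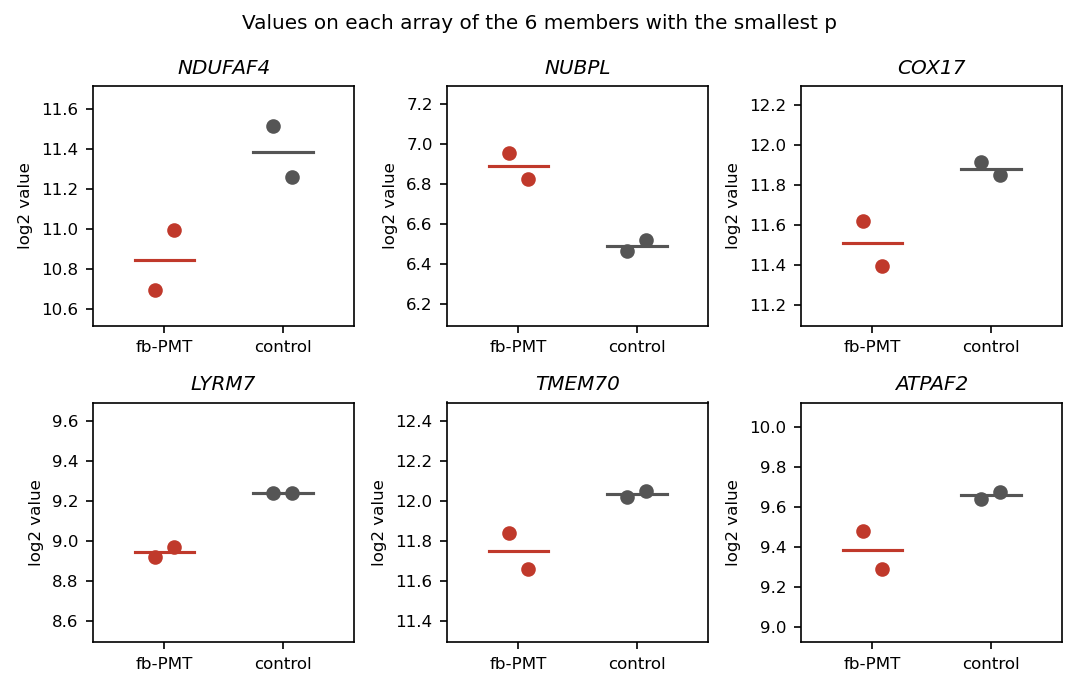
Log2 values on each array (points) and group means (lines) for the 6 assembly factors with the smallest p, fb-PMT left and control right, on vertical axes that all span 1.2 log2 units. The groups do not overlap in any of the 6, which were picked for their p, and NUBPL is the one that is higher with fb-PMT.

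Complex II, succinate dehydrogenase, is made wholly of nuclear-encoded subunits and has 4 of the members. SDHAF2, which helps to attach the flavin to SDHA, had 10.43 and 10.13 on the fb-PMT arrays, against 10.41 and 10.35 on the control arrays. The groups overlapped (-0.11, SE 0.17, adjusted p = 0.857). SDHAF3, which with SDHAF1 serves the iron-sulfur subunit SDHB, was at -0.07 (adjusted p = 0.902). SDHAF1 and SDHAF4, which serve the iron-sulfur subunit and the flavinated SDHA, were below the negative controls. SDHAF4 had 6.50 and 6.19 on the fb-PMT arrays, against 6.42 and 6.07 on the control arrays. SDHA itself was at 0.06 (SE 0.15).

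Complex III, the cytochrome bc1 complex, has 6 members, of which 5 had a lower mean with fb-PMT (median -0.14). LYRM7, a chaperone of the Rieske iron-sulfur protein, had 8.92 and 8.97 on the fb-PMT arrays, against 9.24 on both control arrays. All 4 values were close within their group and the groups did not overlap, with a difference of -0.29 (SE 0.14) or 1.23-fold lower (unadjusted p = 0.0902, adjusted p = 0.521 in limma's test). BCS1L, the ATPase that moves the Rieske protein across the membrane, was at -0.11 (adjusted p = 0.846). TTC19, which helps to clear fragments of the same protein, was at -0.12 (adjusted p = 0.883).

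UQCC1, UQCC2 and UQCC3 act on cytochrome b, the mitochondrially encoded subunit of complex III. UQCC2 had the largest difference, with 8.93 and 9.42 on the fb-PMT arrays against 9.53 and 9.27 on the control arrays. The groups overlapped (-0.23, SE 0.22, adjusted p = 0.746). UQCC3 was lower on both fb-PMT arrays, with 8.25 and 8.49 against 8.50 and 8.56 on the control arrays (-0.16, SE 0.16, adjusted p = 0.759). UQCC1, whose product binds that of UQCC2, was at 0.00 with an interval of -0.40 to 0.40.

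Complex IV, cytochrome c oxidase, has 12 members, 6 with a higher and 6 with a lower mean (median -0.011). COX17 passes copper to other chaperones in the intermembrane space. It had 11.62 and 11.40 on the fb-PMT arrays, against 11.91 and 11.85 on the control arrays. Both fb-PMT arrays were below both control arrays, by more than the range within either group, and the means were 11.51 ± 0.16 with fb-PMT and 11.88 ± 0.05 in control cells (SD, n = 2 each). The difference was -0.37 (SE 0.16) or 1.29-fold lower (unadjusted p = 0.061, adjusted p = 0.469 in limma's test, and adjusted p = 0.178 to 0.827 over the alternatives).

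The proteins that receive this copper gave smaller differences. SCO1, which matures the copper site of subunit 2, had 11.42 and 11.59 on the fb-PMT arrays, against 11.52 and 11.57 on the control arrays (-0.04, SE 0.15). COX11, which serves the copper site of subunit 1, was at 0.02 (SE 0.23). COX19, a soluble partner of COX11, was below the negative controls and had 5.05 and 6.04 on the fb-PMT arrays, against 6.37 and 5.19 on the control arrays. Its replicates were the farthest apart of any member in both groups.

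COX10 and COX15 make heme a, and SURF1 helps in its insertion. The means of all 3 were higher with fb-PMT, at 0.15, 0.20 and 0.17, and none passed the test. COX15 had 11.04 and 10.87 on the fb-PMT arrays, against 10.76 on both control arrays (SE 0.15, unadjusted p = 0.248, adjusted p = 0.673 in limma's test). COX10 and SURF1 overlapped between the groups.

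PET100, COX14, COX18, COX20 and TACO1 act on the synthesis, insertion or stability of the core subunits or their intermediates, and all 5 overlapped between the groups. PET100 had the largest difference, with 10.09 and 10.45 on the fb-PMT arrays against 9.83 and 10.13 on the control arrays (0.28, SE 0.20, adjusted p = 0.638). COX20, a chaperone of subunit 2, had 12.47 and 12.81 on the fb-PMT arrays, against 12.76 and 12.99 on the control arrays (-0.23, SE 0.19, adjusted p = 0.687). COX18, which moves the tail of subunit 2 across the membrane, had 8.69 and 8.49 on the fb-PMT arrays, against 8.71 and 8.02 on the control arrays (0.22, SE 0.26). COX14 was at -0.16 and TACO1, a translational activator of subunit 1, at -0.07.

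ATP synthase has 3 members. TMEM70, which helps to form the ring of c subunits, had 11.84 and 11.66 on the fb-PMT arrays, against 12.02 and 12.05 on the control arrays. ATPAF2, a chaperone of the F1 alpha subunit, had 9.48 and 9.29 on the fb-PMT arrays, against 9.64 and 9.68 on the control arrays. In both genes the fb-PMT arrays lay below the control arrays, with differences of -0.28 (SE 0.15, adjusted p = 0.554) and -0.27 (SE 0.15, adjusted p = 0.568). ATPAF1, the chaperone of the F1 beta subunit, had overlapping groups and a difference of 0.01 (SE 0.19). The clients ATP5F1A and ATP5F1B were at 0.11 and -0.0091, and the c subunit genes ATP5MC1, ATP5MC2 and ATP5MC3 at -0.14, 0.06 and 0.05.

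The structural subunits were counted beside the factors that build them. Of 79 listed nuclear-encoded subunits, 69 were measured. Of these 69, 44 had a higher and 25 a lower mean with fb-PMT (median 0.052), and 0 passed. In limma's test 1 had an unadjusted p under 0.05, or 1.45%, against 11.2% of all transcript clusters. The median was -0.041 for the complex I factors, against 0.054 for 32 subunits. It was -0.091 for the complex II factors, against 0.22 for the 3 measured of 4 listed subunits, SDHB not among the 3. For complex III it was -0.14 over the factors, against -0.015 for 8 subunits. For complex IV the median was -0.011 over the factors and 0.11 over 10 subunits, and for ATP synthase -0.27 over the factors and 0.0066 over 16 subunits. The 1 subunit with an unadjusted p under 0.05 was NDUFB1 of complex I, with 13.04 and 13.44 on the fb-PMT arrays against 12.72 and 12.70 on the control arrays (0.53, SE 0.19, unadjusted p = 0.0313, adjusted p = 0.405 in limma's test). In the other complexes the subunits farthest from 0 were SDHC at 0.35, UQCRQ at 0.15, COX5A at 0.22 and ATP5F1D at -0.44, and none passed. The factors' median was below that of the subunits in each complex, but these lists share the same 4 arrays, and whether they differ was not tested. Some medians rest on few genes, with 4 factors for complex II and 3 for ATP synthase. Of the complex II factors, 2 were below the negative controls.

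**Figure D4:**
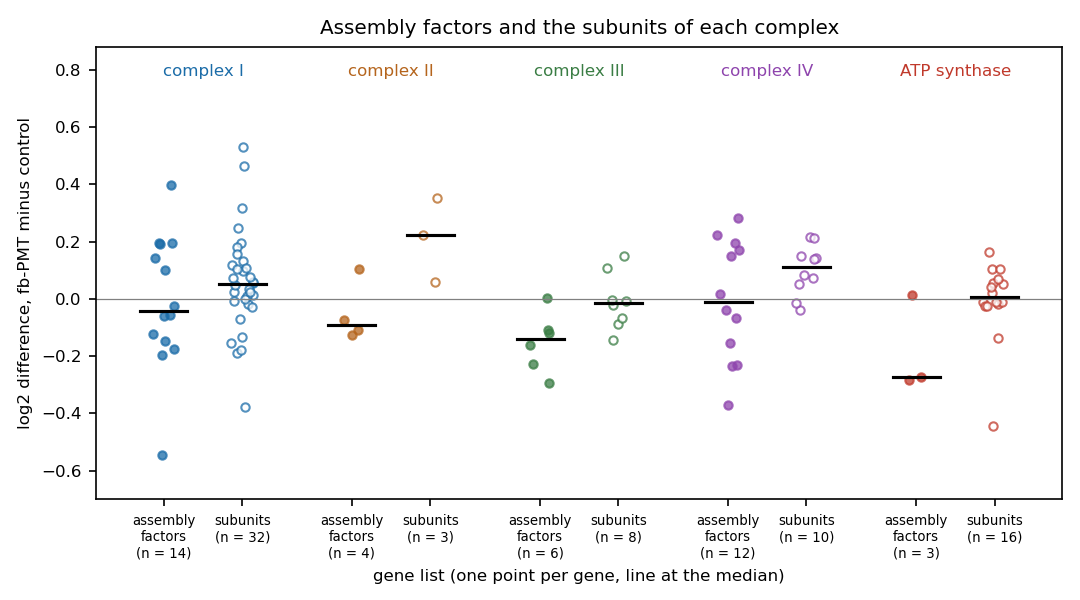
Log2 difference (fb-PMT minus control) of each assembly factor (filled) and each measured nuclear-encoded subunit (open) by complex, with a line at the median of each list. The 2 kinds of gene overlap in range in every complex, in complex II only through SDHAF4 (0.10), which was below the negative controls. The medians for ATP synthase are -0.27 and 0.0066.

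A further 26 measured assembly factors outside the 39 members had 14 higher and 12 lower means (median 0.024), and 0 passed. In limma's test 3 had an unadjusted p under 0.05, or 11.5%, near the 11.2% of all transcript clusters. OXA1L, the insertase of the inner membrane, had 14.22 and 14.09 on the fb-PMT arrays, against 13.39 and 13.42 on the control arrays. Its groups were well apart, with a difference of 0.75 (SE 0.15, unadjusted p = 0.00269, adjusted p = 0.233 in limma's test). COA7, a cysteine-rich factor of complex IV assembly, was at -0.56 (SE 0.19, unadjusted p = 0.0278, adjusted p = 0.393 in limma's test), and DNAJC30, linked to ATP synthase and complex I, was below the negative controls at an unadjusted p of 0.0197. Iron-sulfur cluster synthesis had 11 measured genes, 4 higher and 7 lower (median -0.055), with 0 at an unadjusted p under 0.05. Above the negative controls, BOLA3, which helps to pass clusters on to target proteins, was farthest from 0 (0.23, SE 0.17, adjusted p = 0.65).

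Among transcription factors and coactivators of respiratory genes 6 were measured, 2 higher and 4 lower, and 0 passed. PPRC1, a coactivator related to PGC-1 alpha, had 8.92 and 8.72 on the fb-PMT arrays, against 9.33 and 9.45 on the control arrays (-0.57, SE 0.16, unadjusted p = 0.0128, adjusted p = 0.346 in limma's test). ESRRA, an orphan nuclear receptor, was at -0.37 (unadjusted p = 0.0493, adjusted p = 0.446) and above the negative controls on 1 control array alone. The 10 unnamed transcript clusters whose identifiers begin with TC0M, presumably of the mitochondrial chromosome, ran from -0.11 to 0.091.

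The balance of lower and higher members varied with the pair of arrays compared. fb-PMT array 1 was lower than control array 1 in 29 members and lower than control array 2 in 25. fb-PMT array 2 was lower than control array 1 in 22 members and lower than control array 2 in 19, with 20 higher. The median difference of the members in these 4 pairs was -0.082, -0.061, -0.046 and 0.0097, so its sign turned in the last pair.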

How the data were processed

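Total RNA was extracted with Trizol and labelled with biotin as whole-transcript sense targets, per the labels' protocols. The authors deposited log2 values per probe set, made by RMA (software: Transcriptome Analysis Console, version 4.0.1.36) per the submitters' processing notes. RMA corrects background, normalizes between arrays, shrinks differences of dim probe sets and removes shifts shared by most genes. Its variant and the build of the array's coordinates: not given in the sources used here.

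Of 24351 probe sets, 2903 controls were left out. The 21448 transcript clusters entered one fit, fb-PMT minus control, by lmFit and eBayes of limma 3.58.1 (R 4.3.3), with no trend, two-sided tests, Benjamini-Hochberg adjustment and a threshold of 0.05. Residual and prior degrees of freedom were 2 and 3.72. The fit was tested on simulated data with changes larger than the difference of any member, so that test does not speak for changes of the members' size. An exact permutation test on 4 arrays cannot reach 0.05. Of the platform annotation's symbols, 1 was given for 17709 transcript clusters, several for 0 and none for 3739. All 39 Entrez identifiers of the members matched RefSeq. Background was the 95th percentile of 612 negative control probe sets per array.

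Members and lists were chosen with earlier results of these data known. Values on every array are given for members with an unadjusted p under 0.05, the largest difference above the negative controls in each role group and the members with the 3 highest and 3 lowest values, which do not rank transcripts. Other members given array by array were chosen after their values were seen. From the lists of other assembly factors, subunits, iron-sulfur cluster synthesis and transcription factors, the largest difference above the negative controls and any unadjusted p under 0.05 are named. This rule does not cover the cell type markers. Alternatives were intensity-dependent variances (plain or robust), filters on low values, named transcript clusters alone, renewed quantile normalization, median centring, array weights, a mean per symbol, a replicate block, a threshold of 0.1, and leaving out each array.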

Additional observations from a re-analysis of the deposited data

How the results depend on the processing

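No assembly factor passed at an adjusted p of 0.05 under any of the 15 alternatives, 0.1 as the threshold included. The number of transcript clusters that passed was 403 with an intensity trend and 394 with robust variances as well, 67 without the lowest 30%, 318 with the filter on negative controls, 44 among those with 1 symbol, 73 at a threshold of 0.1, and 1 to 9 when 1 array was left out, against 21. Fewer transcript clusters were tested under the filters, and fewer arrays in the last setting. For the trend the cause was not tested. With a trend, 1.88% of all transcript clusters passed and 0 of the members. The count of members at an unadjusted p under 0.05 was 4 with an intensity trend, and 4 with robust variances: NDUFAF4, COX17, TMEM70 and NDUFAF3. It was 0 to 1 when 1 array was left out, with 0 without fb-PMT replicate 1, against 2. The replicate block gave 1 such member, NDUFAF4, and 1 transcript cluster that passed. Same-numbered arrays deviated together with r = 0.042 over all transcript clusters and -0.16 over the members. The labels do not say whether same-numbered arrays share a culture or a day, and these correlations cannot decide it. The members' median difference was -0.067 to -0.031 when 1 array was left out and -0.089 after renewed quantile normalization.

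Under the alternatives 508 of 541 values of single members kept their direction and 33 were reversed. Many of the 508 could not turn, because the setting left every log2 difference as it was. Such settings were intensity-dependent variances, filters on low values, named transcript clusters alone, array weights, a mean per symbol and the replicate block. All 33 reversed values came from renewed quantile normalization or from leaving out 1 array. Renewed quantile normalization turned ATPAF1 to -0.014, COX11 to -0.018 and UQCC1 to -0.024, all near 0 as deposited. Leaving out 1 array turned the sign of 21 members and left that of 18. NDUFAF4 (-0.69 to -0.39), COX17 (-0.48 to -0.26) and NUBPL (0.33 to 0.46) were among the 18. Their groups did not overlap, so leaving out any 1 array could not turn their sign. Those that turned had these lowest and highest differences when 1 array was left out, with fewer arrays as the change: ATPAF1 -0.16 to 0.19, BCS1L -0.23 to 0.0095, COX10 -0.031 to 0.33, COX11 -0.26 to 0.30, COX18 -0.12 to 0.57, COX19 -0.82 to 0.36, ECSIT -0.057 to 0.35, NDUFAF2 -0.44 to 0.049, NDUFAF5 -0.34 to 0.049, NDUFAF7 -0.17 to 0.052, SCO1 -0.12 to 0.043, SDHAF2 -0.26 to 0.043, SDHAF3 -0.18 to 0.031, SDHAF4 -0.070 to 0.28, SURF1 -0.041 to 0.38, TACO1 -0.20 to 0.067, TIMMDC1 -0.013 to 0.40, TMEM126B -0.066 to 0.015, TTC19 -0.33 to 0.090, UQCC1 -0.12 to 0.12, UQCC2 -0.47 to 0.016.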
